A study of Mus musculus with 8 samples.

Results

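The interleukin 1 family ligands and receptors were followed through 8 libraries of bulk mouse melanoma tumors. The group was set by name, as the 10 genes Il1a, Il1b, Il1rn, Il1r1, Il1r2, Il1rap, Il18, Il18bp, Il33 and Il1rl1. All 10 were among the 28918 genes of the expression table, and 9 of them were among the 13726 genes tested. Il1a was not tested because its mean level was under 1 TPM (a share of all transcripts, scaled for transcript length). The tumors grew under the skin of C57BL/6 mice from B16mhgp100 cells, a B16 melanoma line carrying a gp100 antigen, with over-expression of Colq in 1 group and vector alone in the other. Colq is the collagen tail subunit of acetylcholinesterase, best known from the neuromuscular junction. Every mouse of both groups received an antibody against PD-1, an inhibitory receptor of T cells, in 4 doses of 200 µg, 2 per week. Dosing began on day 10 of tumor growth, and harvest followed the final dose by 1 day. There was no group without the antibody, so its effect was not measured. Colq tumors 1, 2 and 3 gave 1 library each. Vector tumors 1 and 2 were sequenced as 2 portions each and vector tumor 3 as 1 library, which makes 5 vector libraries. Portions were averaged, so each comparison set 3 Colq tumors against 3 vector tumors, named as separate tumors in the labels with no statement on whether each came from its own mouse. If they did not, the tests measure a spread that may be technical in part.

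Interleukin 1 alpha (Il1a) and interleukin 1 beta (Il1b) are inflammatory cytokines that bind the receptor Il1r1, which then recruits the accessory chain Il1rap and signals through Myd88, the IRAK kinases and NF-kB. The receptor antagonist Il1rn occupies Il1r1 without recruiting the accessory chain, and Il1r2 is a decoy receptor that binds the cytokine but lacks a signalling domain. Interleukin 33 (Il33) is a nuclear alarmin of stromal and epithelial cells, released on damage, whose receptor Il1rl1 (also called ST2) is carried by mast cells, group 2 innate lymphoid cells, eosinophils and regulatory T cells and uses the same accessory chain. Interleukin 18 (Il18), like Il1b, is made as a precursor that caspase 1 cleaves in the inflammasome, and the secreted protein Il18bp neutralizes it. Il1rl1 and Il1rap each give rise to soluble and membrane forms, which a level per gene does not tell apart.

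The sequences before the start sites of 5 members are shown because their transcripts carry the results: Il33 and Il1rl1 had the highest ratios between groups, Il1r2 and Il1b rose with them, and Il1rap alone fell. All 10 members matched the RefSeq table of build GRCm38.p6, with 15 start sites, and each sequence holds the 250 bases before a start, 5′ to 3′ in the direction of the gene. The authors used build mm39, so the positions belong to the RefSeq build and not to the deposited values. Capitals mark matches to the 4 motifs searched: AP-1 (TGANTCA), NF-kB, GATA (the hexamers starting with AGATA or TGATA and ending in A or G), each on both strands, and the TATA box (TATAAA, sense strand only).
Il33 first start, chr19:29924863-29925112, plus strand: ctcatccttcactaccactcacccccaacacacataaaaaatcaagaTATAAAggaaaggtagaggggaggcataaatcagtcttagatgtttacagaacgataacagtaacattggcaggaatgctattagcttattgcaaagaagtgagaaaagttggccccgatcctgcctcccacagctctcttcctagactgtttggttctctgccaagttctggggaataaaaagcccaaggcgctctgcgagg
Il33 second start, chr19:29945540-29945789, plus strand: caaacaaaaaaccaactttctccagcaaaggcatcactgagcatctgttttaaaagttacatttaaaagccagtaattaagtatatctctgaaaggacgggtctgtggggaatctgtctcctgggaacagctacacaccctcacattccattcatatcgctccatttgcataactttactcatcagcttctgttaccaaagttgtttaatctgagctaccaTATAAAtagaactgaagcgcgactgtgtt
Il1rl1 upstream start, chr1:40429320-40429569, plus strand: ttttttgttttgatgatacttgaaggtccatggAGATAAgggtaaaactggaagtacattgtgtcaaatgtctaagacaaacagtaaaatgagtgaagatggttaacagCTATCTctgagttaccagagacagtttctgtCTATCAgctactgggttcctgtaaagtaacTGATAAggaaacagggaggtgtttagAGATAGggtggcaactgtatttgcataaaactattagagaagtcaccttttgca
Il1rl1 downstream start, chr1:40439379-40439628, plus strand: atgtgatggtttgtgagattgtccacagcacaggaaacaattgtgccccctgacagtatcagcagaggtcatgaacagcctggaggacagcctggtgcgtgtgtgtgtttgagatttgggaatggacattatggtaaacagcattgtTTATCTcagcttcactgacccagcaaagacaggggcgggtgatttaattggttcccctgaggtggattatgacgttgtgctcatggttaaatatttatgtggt
Il1r2, chr1:40085843-40086092, plus strand: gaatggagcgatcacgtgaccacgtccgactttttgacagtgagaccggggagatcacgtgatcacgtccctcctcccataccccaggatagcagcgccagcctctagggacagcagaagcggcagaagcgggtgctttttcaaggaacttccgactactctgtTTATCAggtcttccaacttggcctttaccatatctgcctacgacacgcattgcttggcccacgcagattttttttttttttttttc
Il1b, chr2:129371140-129371389, minus strand: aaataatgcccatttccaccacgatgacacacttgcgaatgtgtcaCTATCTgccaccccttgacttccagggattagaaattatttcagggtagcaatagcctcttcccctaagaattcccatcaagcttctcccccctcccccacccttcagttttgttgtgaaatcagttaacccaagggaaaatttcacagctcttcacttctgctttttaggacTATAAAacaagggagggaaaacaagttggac
Il1rap, chr16:26581455-26581704, plus strand: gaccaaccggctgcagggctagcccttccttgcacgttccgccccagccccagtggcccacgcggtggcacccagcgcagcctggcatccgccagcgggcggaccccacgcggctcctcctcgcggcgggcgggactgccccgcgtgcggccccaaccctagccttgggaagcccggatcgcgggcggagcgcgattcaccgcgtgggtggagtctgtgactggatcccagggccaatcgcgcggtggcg
Of 32851 such windows over all genes, 6.75% held an AP-1 match, 7.25% an NF-kB match, 26.5% a GATA match and 7.59% a TATA box. Il1rl1 has an upstream start, known from mast cells and other blood cells, and a downstream start, known from fibroblasts. Its upstream window held 5 GATA matches, at 217, 141, 110, 80 and 54 bases before the start, and its downstream window held 1. At least 5 such matches occurred in 14 of the 32851 windows (0.0426%). That threshold was the highest GATA count among the windows of the 15 member starts, for 1 of 4 motifs. The share is thus a description and no test. The Il1rap window held none of the 4 motifs and was rich in G and C, at 74.4% with 30 CpG pairs, against medians of 52.4% and 6 over all windows. TATA boxes began 31 bases before the start of Il1b and 29 bases before the second start of Il33. Another began 203 bases before the first start of Il33. These matches describe letters only, and the level per gene does not show which start was used.

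The labels were checked first. The Colq transcript measured 4.05, 5.03 and 3.86 TPM in its own group and 0 to 0.24 TPM across vector libraries (log2 fold change 2.24, SE 0.16; limma, adjusted p = 2.8e-05). The 8 skeletal muscle markers summed to 733.44 to 753.19 TPM in Colq and 30.47 to 143.52 TPM in vector libraries. Their part in the Colq level was not tested. The melanocyte genes Pmel, Mlana and Tyr were present in all libraries. TPM keeps no sequencing depth, so the depth is unknown; each library listed 19887 to 21602 genes above 0. The 3 Colq libraries lay close together, with a median absolute log2 difference between any pair of 0.106 to 0.111 over tested genes. The 2 portions of 1 vector tumor differed more, by 0.144 in tumor 1 and 0.219 in tumor 2. Because of this closeness each call on a member was repeated with the Colq libraries merged, that is, averaged and counted as 1 sample; the lone sample is then assumed to vary like vector tumors. That setting was chosen after seeing the data.

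Colq was set against vector to ask how tumors differ when both are treated with the antibody. Among the interleukin 1 family, the alarmin Il33 had 6.58 times and its receptor Il1rl1 5.38 times the mean level of vector tumors. The decoy receptor Il1r2 followed with 3.74 times and the cytokine Il1b with 2.02 times. Il1rn, Il18, Il1r1 and Il18bp rose by smaller ratios, between 1.33 and 1.61. The shared accessory chain Il1rap went the other way, with a vector mean 2.75 times the Colq mean. Il1a was low in all libraries. In these bulk samples, fewer cells of a type and less RNA per cell cannot be told apart.

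**Figure D1:**
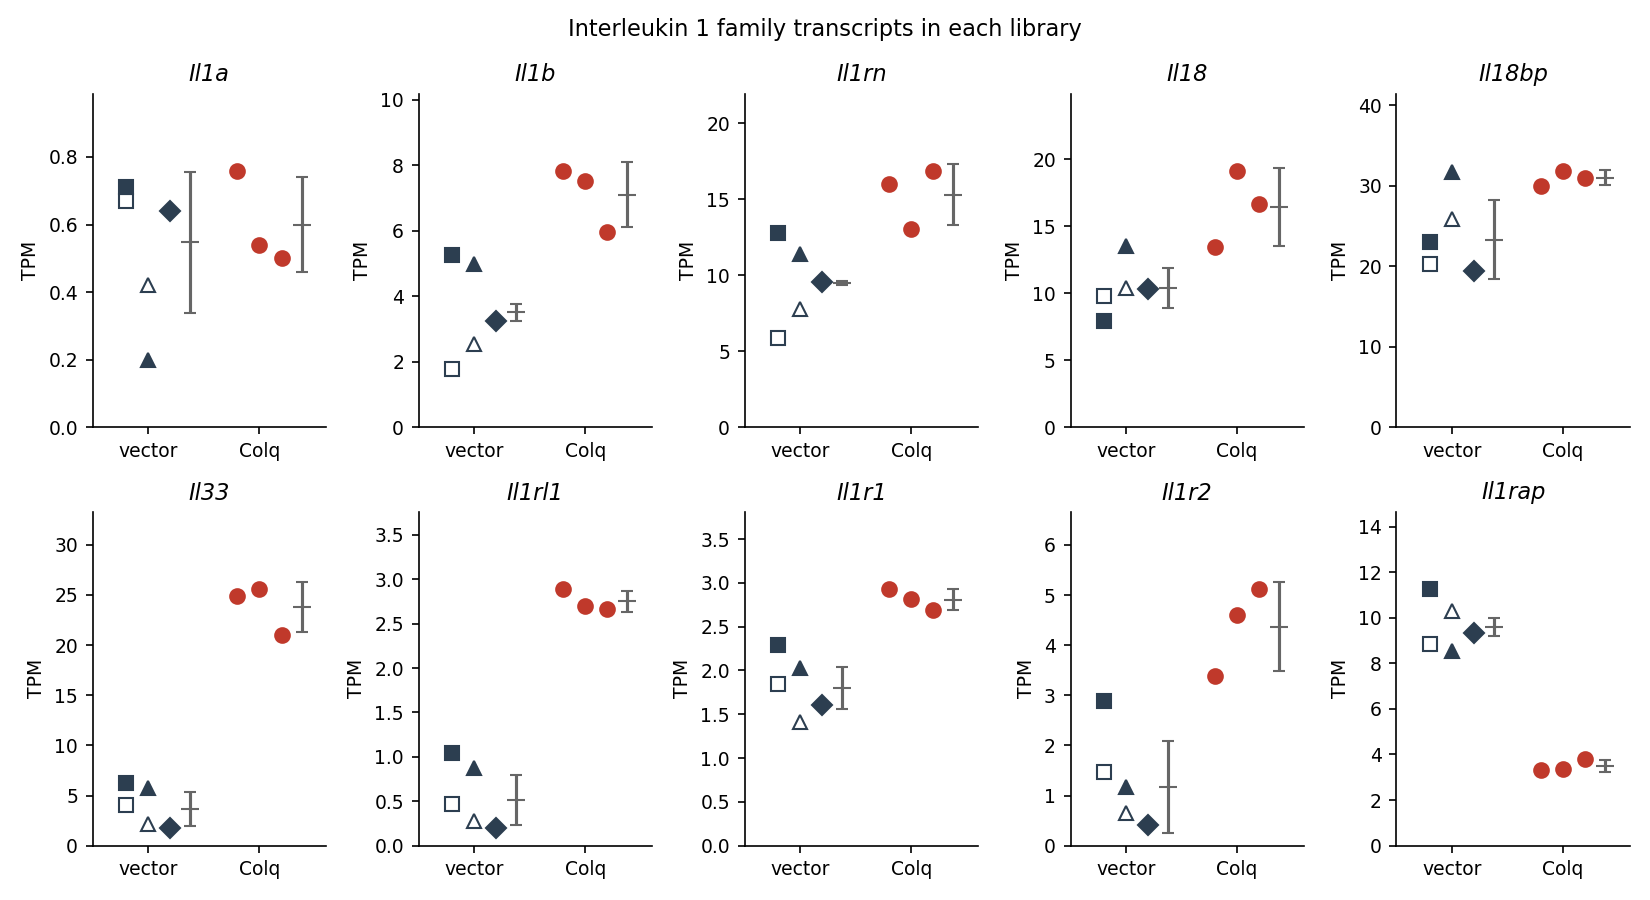
TPM of the 10 members in each library. Vector tumors 1, 2 and 3 are squares, triangles and diamonds, filled for the first or only portion and open for the second, and Colq tumors are red circles; grey bars give the mean and SD over 3 tumors. The groups stand apart for 7 members, while libraries overlap for Il1a, Il18 and Il18bp.

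Of the 9 members tested, 8 were called higher (limma, Benjamini-Hochberg adjusted p under 0.05), where 11.3% of all tested genes were, and 1 was called lower, where 59.6% of all tested genes were. The 3 Colq tumors all lay above the 3 vector tumors for the same 8 members, as for 12.5% of tested genes, and all below for Il1rap, as for 62.2%. The median log2 fold change was 0.67 over the tested members and -0.50 over all tested genes, so a fold change is read against -0.50. After size factors, which set that median to -0.00, the 8 members were again called higher (28.0% of all tested genes) and Il1rap lower (25.5%). The authors' deposited table had 8 members higher with an adjusted p under 0.05, as were 20.1% of the genes given an adjusted p there, and 1 lower, as were 20.4%. Without a filter on low values all 10 members entered, and 6 were called higher and 1 lower, beside 6.29% and 29.3% of 27546 genes. With merged Colq libraries, 4 members (Il33, Il1rl1, Il1b and Il1rn) were called higher and Il1rap lower, beside 5.74% and 41.6% of all tested genes. Il1rl1 passed the filter only through the Colq tumors, at a vector mean of 0.512 TPM. Its call is a description and no support for these counts, all of which include it among the members higher.

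**Figure D2:**
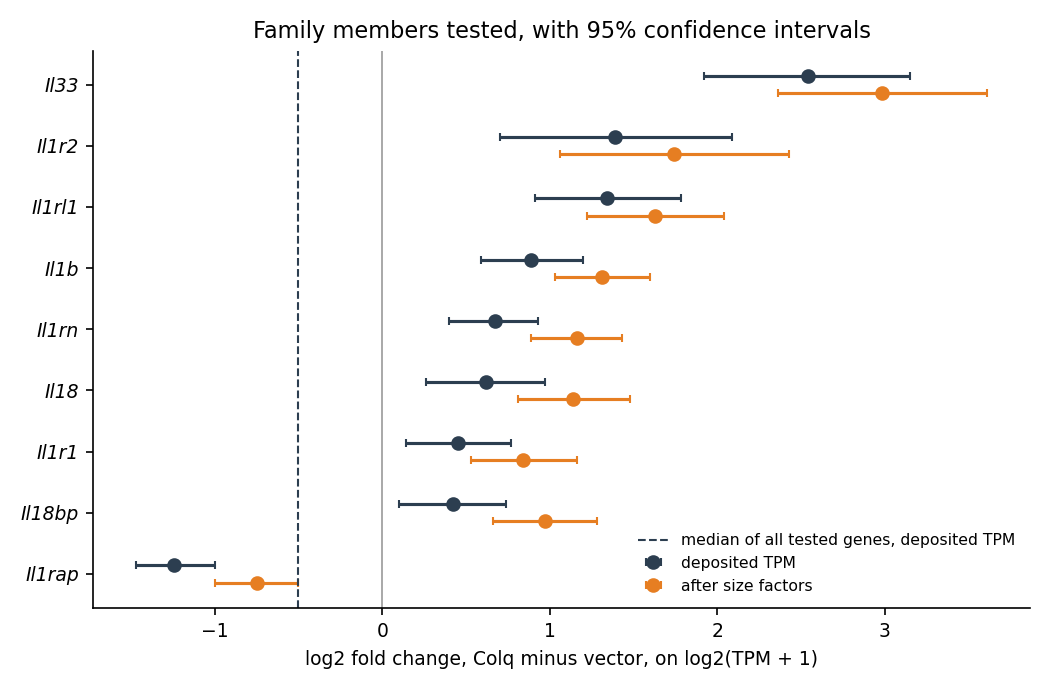
Log2 fold changes, Colq minus vector, on the log2(TPM + 1) scale for the 9 tested members, with 95% confidence intervals from limma; dark points use the deposited TPM and orange points TPM after size factors. Il33 lies farthest to the right, at 2.54 and 2.98, and Il1rap is the only member to the left of 0, at -1.24 and -0.75; the dashed line marks the median of all tested genes, -0.50.

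Il33 carried the largest difference of the family. The Colq libraries held 24.89, 25.59 and 21.01 TPM. Vector tumor 1 held 6.24 and 4.05 TPM in its portions, vector tumor 2 held 5.72 and 2.12 TPM, and vector tumor 3 held 1.80 TPM. The lowest Colq library was thus above the highest vector library. The means were 23.8 ± 2.5 TPM for Colq and 3.62 ± 1.7 TPM for vector (SD, n = 3 each). The log2 fold change was 2.54 (95% interval 1.92 to 3.15; limma, adjusted p = 0.00011), and it was called in all 20 settings run.

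Il1b, the secreted inflammatory ligand, measured 7.84, 7.51 and 5.96 TPM in Colq libraries. Its vector values were 5.25 and 1.79 TPM in the portions of tumor 1, 4.98 and 2.55 TPM in those of tumor 2 and 3.25 TPM in tumor 3. No vector library reached the lowest Colq library, although the first portions of both vector tumors came near it. The tumor means were 7.1 ± 1.0 and 3.51 ± 0.26 TPM (SD, n = 3 each), with a log2 fold change of 0.89 (95% interval 0.59 to 1.20; limma, adjusted p = 0.00056). The small SD of the vector tumors leaves out the difference between portions. Il1a, the other agonist of the same receptor, held 0.76, 0.54 and 0.50 TPM in Colq libraries and 0.20 to 0.71 TPM in vector libraries. The values of Il1a overlapped, at 0.6 ± 0.14 and 0.547 ± 0.21 TPM (SD, n = 3 each). Without the filter its log2 fold change was 0.06, with an interval of -0.27 to 0.38 (limma, adjusted p = 0.78).

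Il18, the inflammasome-processed inducer of interferon gamma, was measured at 13.46, 19.15 and 16.62 TPM in the Colq libraries. Vector libraries held 7.90 and 9.79 TPM in tumor 1, 13.52 and 10.35 TPM in tumor 2, and 10.34 TPM in tumor 3. The first portion of vector tumor 2 lay just above Colq tumor 1, so libraries overlapped while tumor means did not. The means were 16.4 ± 2.9 and 10.4 ± 1.5 TPM (SD, n = 3 each; log2 fold change 0.62, 95% interval 0.26 to 0.97; limma, adjusted p = 0.0078). The call on Il18 was lost with the trend on exonic length removed (0.40, adjusted p = 0.066) and with merged Colq libraries (adjusted p = 0.065).

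Both natural inhibitors rose beside their ligands. Il1rn, the antagonist, held 16.02, 13.03 and 16.90 TPM in Colq libraries. In the vector group it held 12.78 and 5.86 TPM in tumor 1, 11.41 and 7.79 TPM in tumor 2, and 9.55 TPM in tumor 3. The first portion of vector tumor 1 came within reach of Colq tumor 2 without passing it. The tumor means of 15.3 ± 2.0 and 9.49 ± 0.15 TPM (SD, n = 3 each) gave a log2 fold change of 0.67 (95% interval 0.40 to 0.93; limma, adjusted p = 0.0012). Il18bp, the interleukin 18 trap, was the most abundant member in both groups, with 30.01, 31.90 and 30.95 TPM in Colq libraries and 19.36 to 31.74 TPM in vector libraries. One portion of vector tumor 2 reached the Colq level of Il18bp. Its log2 fold change of 0.42 (95% interval 0.10 to 0.74; limma, adjusted p = 0.026) was the least firm of the family. It was called in 12 of 20 settings and lost in 5 of the 6 fits that left out a tumor (all but that without Vector replicate 2; adjusted p up to 0.084), with first portions only (0.11), without the filter (0.064) and with merged Colq libraries (0.22).

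The receptors split. Il1r1, the signalling receptor for Il1a and Il1b, stood at 2.93, 2.82 and 2.69 TPM in Colq libraries. It held 2.29 and 1.85 TPM in vector tumor 1, 2.03 and 1.41 TPM in vector tumor 2, and 1.61 TPM in vector tumor 3. The groups did not overlap, but the gap was narrow. The means were 2.81 ± 0.12 and 1.80 ± 0.24 TPM (SD, n = 3 each; log2 fold change 0.45, 95% interval 0.14 to 0.77; limma, adjusted p = 0.018). The call on Il1r1 was lost without the filter (adjusted p = 0.058), with first portions only (0.062), without Colq replicate 1 (0.054), without Colq replicate 2 (0.050) and with merged Colq libraries (0.14).

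Il1r2, the decoy, held 3.39, 4.61 and 5.12 TPM in Colq libraries. Vector tumor 1 held 2.88 and 1.47 TPM, vector tumor 2 held 1.18 and 0.66 TPM, and vector tumor 3 held 0.41 TPM, so that vector tumors were more spread out than Colq tumors on a log scale and none of their libraries reached 3.39 TPM. The means were 4.37 ± 0.89 and 1.17 ± 0.91 TPM (SD, n = 3 each). The log2 fold change was 1.39 (95% interval 0.70 to 2.09; limma, adjusted p = 0.0038) with a pseudocount of 1 and 2.10 with 0.1, since the pseudocount shrinks changes of low genes. With merged Colq libraries the adjusted p was 0.076. Il1rl1, the interleukin 33 receptor, held 2.89, 2.70 and 2.67 TPM in the Colq libraries. It held 1.04 and 0.47 TPM in vector tumor 1, 0.88 and 0.28 TPM in vector tumor 2, and 0.20 TPM in vector tumor 3. Every Colq library had more than 2 times the Il1rl1 level of any vector library. The means were 2.75 ± 0.12 and 0.512 ± 0.28 TPM (SD, n = 3 each), with log2 fold changes of 1.34 (95% interval 0.91 to 1.78; limma, adjusted p = 0.00044) with a pseudocount of 1 and 2.43 with 0.1. Il1rl1 passed the filter only through the Colq tumors, so this call is a description.

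Il1rap, the accessory chain that Il1r1 and Il1rl1 share, was lower in Colq tumors. Its Colq libraries held 3.32, 3.35 and 3.81 TPM, and the vector libraries held 11.26 and 8.84 TPM in tumor 1, 8.55 and 10.31 TPM in tumor 2, and 9.34 TPM in tumor 3. All vector libraries lay well above all Colq libraries. The means were 3.49 ± 0.27 and 9.61 ± 0.39 TPM (SD, n = 3 each), and the log2 fold change was -1.24 (95% interval -1.47 to -1.0; limma, adjusted p = 4.2e-05). The fall of Il1rap shrank to -0.75 after size factors (limma, adjusted p = 0.0011) and to -0.38 with the length trend removed (limma, adjusted p = 0.014), while its direction and call held in all 20 settings. In the authors' deposited table it was -0.91 (adjusted p = 9.9e-09).

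The levels also changed their order. TPM being a level per length, members can be ranked within a group by mean. In vector tumors Il1rap, at 9.61 TPM, ranked with Il18 (10.4 TPM) and Il1rn (9.49 TPM) behind Il18bp (23.3 TPM), and these 3 neighbours overlapped between libraries. Il33 (3.62 TPM) and Il1b (3.51 TPM) came next and overlapped too, followed by Il1r1 (1.80 TPM), Il1r2 (1.17 TPM), Il1a (0.547 TPM) and Il1rl1 (0.512 TPM). In Colq tumors Il33 (23.8 TPM) stood behind Il18bp (31.0 TPM) and ahead of Il18 (16.4 TPM) and Il1rn (15.3 TPM). The 4 receptor chains lay close together there, with Il1r2 at 4.37 TPM, Il1rap at 3.49 TPM, Il1r1 at 2.81 TPM and Il1rl1 at 2.75 TPM. Il1r1 and Il1rl1 did not differ beyond their spread in Colq tumors.

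Ratios of TPM within a tumor put ligand beside inhibitor and receptor beside partner. The ratios formed numbered 6, and an exact permutation test (two-sided, over tumors) was run on each, with 0.1 as the smallest p that 3 against 3 allows. Il1rap exceeded Il1r1 by 4.86, 5.48 and 5.80 times in the vector tumors and by 1.13, 1.19 and 1.42 times in the Colq tumors (exact permutation p = 0.1, adjusted over the 6 ratios 0.2). Il1rap exceeded Il1rl1 by 13.3, 16.3 and 46.7 times in vector tumors and by 1.15, 1.24 and 1.43 times in Colq tumors (exact permutation p = 0.1, adjusted 0.2). Il1r2 to Il1r1, decoy to signalling receptor, was 1.05, 0.535 and 0.255 in vector tumors and 1.16, 1.63 and 1.90 in Colq tumors (exact permutation p = 0.1, adjusted 0.2). For these 3 ratios the tumors of the groups did not overlap, although for Il1r2 to Il1r1 a portion of vector tumor 1, at 1.26, exceeded Colq tumor 1. For Il1rap to Il1r1 and to Il1rl1 this was fixed by the member levels already given. Every Colq library held less Il1rap, and more Il1r1 and Il1rl1, than any vector library. The tests of those ratios are thus no further support.

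The other 3 ratios overlapped between the groups. Il1rn to Il1b was 2.20 ± 0.57 in Colq and 2.71 ± 0.20 in vector tumors (SD, n = 3 each; exact permutation p = 0.3, adjusted 0.3). Il18bp to Il18 was 1.92 ± 0.29 and 2.24 ± 0.32 (SD, n = 3 each; exact permutation p = 0.2, adjusted 0.3). Il33 to Il1rl1 was 8.65 ± 0.81 and 7.52 ± 1.3 (SD, n = 3 each; exact permutation p = 0.3, adjusted 0.3). The design could not have brought any of these below 0.1.

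**Figure D3:**
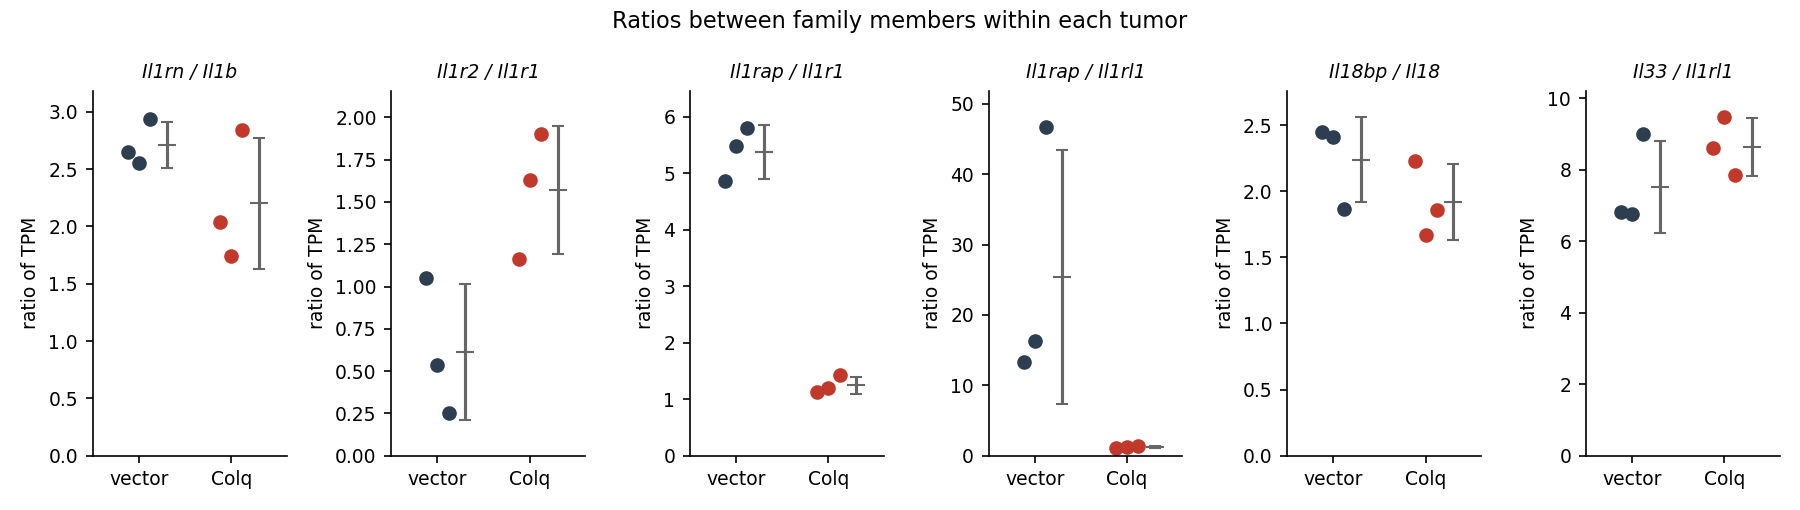
Ratios of TPM between members in each tumor, portions averaged; points are tumors and grey bars the mean and SD over 3 tumors. Il1rap to Il1r1 and Il1rap to Il1rl1 separate the groups, with Colq means of 1.25 and 1.27 against vector means of 5.38 and 25.4, while Il1rn to Il1b, Il18bp to Il18 and Il33 to Il1rl1 overlap. The separation of the Il1rap ratios follows from the levels of these members.

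The portions of a vector tumor show how far the members vary inside a tumor. In vector tumor 1 the first portion exceeded the second by a log2 difference of 1.16 for Il1b, 1.01 for Il1rn, 0.65 for Il1r2 and 0.52 for Il33. In vector tumor 2 the first portion exceeded the second by 1.11 for Il33, 0.75 for Il1b, 0.55 for Il1rl1 and 0.50 for Il1rn. The median over all tested genes was -0.01 and -0.11 in these tumors, and 47.1% and 34.3% of genes were higher in the first portion. Il1b, Il1rn, Il1r1, Il1r2, Il18bp, Il33 and Il1rl1 were higher in the first portion of both tumors, whereas Il1a, Il18 and Il1rap differed in direction between them. Keratinocyte markers moved with the portions: the sum of the 8 markers was 222.02 and 24.99 TPM in the first portions of tumors 1 and 2 and 1.46 and 0.02 TPM in the second. The 9 measured neutrophil markers summed to 122.5 and 17.22 TPM in the first portions and 12 and 6.67 TPM in the second. The part of these cells in the portion differences was not tested.

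**Figure D4:**
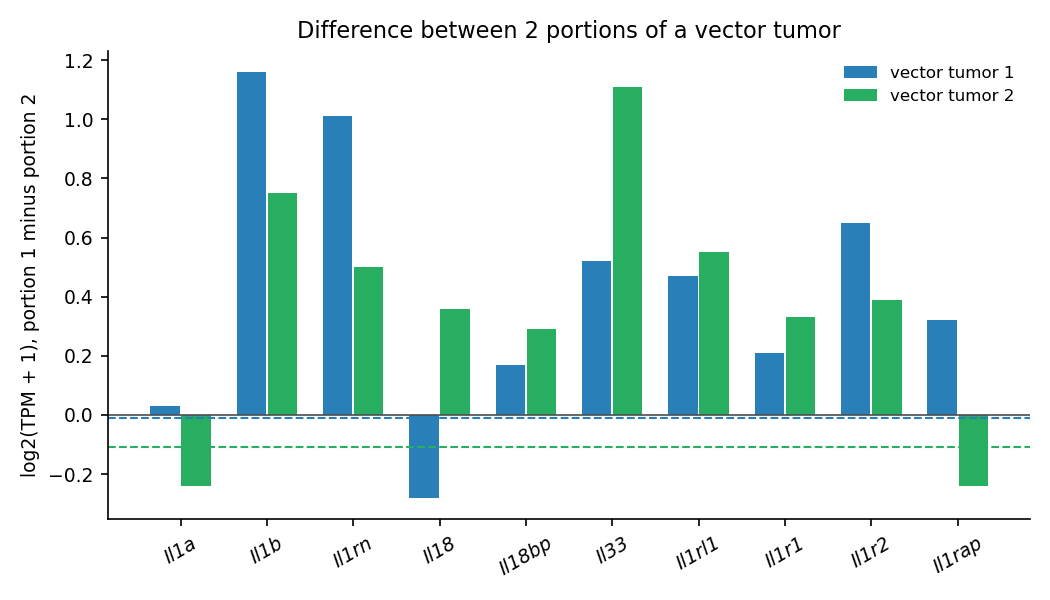
Difference in log2(TPM + 1) between the 2 portions of vector tumors 1 (blue) and 2 (green) for the 10 members; dashed lines mark the medians over all tested genes, -0.01 and -0.11. Il1b differs by 1.16 and 0.75 and Il33 by 0.52 and 1.11, while Il1a, Il18 and Il1rap change sign between the tumors.

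Markers of cells known to carry these genes were measured in the same libraries. Their counts stand beside 11.3% of all tested genes called higher and 59.6% called lower as deposited. Mast cell markers, beside Il1rl1 and Il33, summed to 25.35 to 30.83 TPM in Colq and 4.72 to 15.87 TPM in vector libraries over 7 genes; 4 of the 5 tested were called higher (2 with first portions only), among them the proteases Cma1, Mcpt4 and Cpa3. Fibroblast markers, a source of Il33, summed to 380.87 to 412.05 TPM against 172.4 to 337.65 TPM, with 5 of 8 called higher and 2 lower. Dcn rose from 16.6 ± 5.1 to 80.4 ± 3.6 TPM, while Col1a1 fell from 87.2 ± 7.0 to 45.5 ± 2.5 TPM (SD, n = 3 each). Keratinocyte markers, beside Il33 and Il1a, summed to 39.62 to 44.59 TPM in Colq libraries and 0.02 to 222.02 TPM in vector libraries, with 4 of 6 tested called higher. That count of keratinocyte markers was 1 with first portions only, 6 with second portions only and 1 with merged Colq libraries, and Krt15 passed the filter only through the Colq tumors.

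Myeloid markers bear on Il1b, Il1rn, Il1r2, Il18 and Il18bp. The 7 monocyte markers summed to 263.66 to 275.18 TPM in Colq and 55.14 to 94.69 TPM in vector libraries, with 4 called higher and 1 lower; Plac8 and Ccr2 were among the higher ones. The 10 macrophage markers summed to 1590.3 to 1638.1 TPM against 466.74 to 1158.8 TPM, with 2 called higher and 1 lower. Among them Csf1r and Cd68 did not pass the test as deposited, and Cd68 passed after size factors (0.63; limma, adjusted p = 0.022). After size factors 8 macrophage markers were called higher, where 28.0% of all tested genes were, and without Vector replicate 2 it was 7. Without Lyz2, a summation chosen after seeing the data, the sums were 720.39 to 764.71 TPM in Colq and 299.16 to 862.36 TPM in vector libraries, which overlap. The 9 neutrophil markers summed to 28.76 to 30.40 TPM and 4.40 to 122.5 TPM, and 2 of the 5 tested were called higher (4 with second portions only and without Vector replicate 1). Ngp was at 0 in all libraries, and Camp was at 0 in all libraries of 1 group. S100a8 was highest in the first portion of vector tumor 1, at 55.1 TPM. Among vector libraries this portion held the most of every member except Il18 and Il18bp. It also had the highest keratinocyte sum, 222.02 TPM.

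Beside the lower Il1rap, the 8 melanocyte markers summed to 12016 to 12411 TPM in Colq and 19929 to 24400 TPM in vector libraries, with 7 called lower (5 lower and 2 higher after size factors). The 8 endothelial markers summed to 50.39 to 53.41 TPM and 94.25 to 145.32 TPM, with 5 of 7 tested called lower. Over all tested genes 59.6% were called lower and 11.3% higher as deposited, and 25.5% and 28.0% after size factors. The sum of the dendritic cell markers was also higher, at 38.10 to 44.82 TPM against 12.14 to 22.64 TPM, with 3 of 5 tested called. Clec10a alone stood at 27.7 against 4.89 TPM. The tested markers Zbtb46 and Itgax had lower means in Colq tumors, at 2.47 against 3.17 and 2.79 against 5.1 TPM. Neither passed the test (limma, adjusted p = 0.11 each). Of the dendritic markers Cd209a and Clec9a, and of the neutrophil markers Retnlg, passed the filter only through the Colq tumors. The 7 T cell markers overlapped, at 23.05 to 30.26 and 10.78 to 31.02 TPM, with 2 called higher (4 after size factors, 5 without Vector replicate 2 and 1 in each of the other 5 fits that left out a tumor). Skeletal muscle markers, which mark muscle fibres, summed to 733.44 to 753.19 TPM in Colq and 30.47 to 143.52 TPM in vector libraries, and 8 of 8 were called higher. The part of any of these cell types in the differences of the family was not tested.

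The receptor genes Il1r2, Il1r1, Il1rl2, Il1rl1, Il18r1 and Il18rap follow one another on chromosome 1 in RefSeq. Il1rl2, the interleukin 36 receptor, stood at 2.03 ± 0.42 against 0.583 ± 0.25 TPM (SD, n = 3 each; log2 fold change 0.95; limma, adjusted p = 0.0036), and it passed the filter only through the Colq tumors, so its call is a description. Il18rap, the accessory chain of the interleukin 18 receptor, stood at 1.33 ± 0.55 against 0.783 ± 0.18 TPM (SD, n = 3 each), and its difference did not pass the test as deposited (log2 fold change 0.37; limma, adjusted p = 0.17). It was called higher after size factors (0.65; limma, adjusted p = 0.044), and it too passed the filter only through the Colq tumors. The binding chain Il18r1 was under the filter, at 0.577 and 0.472 TPM. Just outside the row of receptors, Map4k4 on one side was lower in Colq tumors (51.1 against 106 TPM, log2 fold change -1.03; limma, adjusted p = 1.5e-05). On the other side Slc9a4 and Slc9a2 lay under the filter, at 0.403 against 0.0583 TPM and 0.05 against 0.00333 TPM in Colq and vector tumors. Of the further family genes, Sigirr, which restrains signalling, was called lower as deposited, at 7.06 ± 0.52 against 12.2 ± 3.8 TPM (SD, n = 3 each; log2 fold change -0.66; limma, adjusted p = 0.025), and did not pass the test after size factors (-0.15; limma, adjusted p = 0.58), once the length trend was removed (-0.35), with merged Colq libraries, or in 5 of the 6 fits that left out a tumor (all but that without Vector replicate 3).

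Around the family, 7 lists of pathway genes were counted. Of 9 tested inflammasome genes, 3 were called higher and 1 lower, with a median log2 fold change of 0.26, beside 11.3% and 59.6% of all tested genes. After size factors these shares of all tested genes were 28.0% and 25.5%. The higher inflammasome genes were 7 after size factors, 5 once the length trend was removed, and 1 with first portions only, without the filter, without Colq replicate 1 or without Colq replicate 3. Pycard, the adaptor that joins sensor to caspase, rose from 15.1 ± 5.8 to 39.1 ± 2.2 TPM (SD, n = 3 each; log2 fold change 1.39; limma, adjusted p = 0.0011), and its adjusted p was 0.052 with merged Colq libraries. Ninj1, which ruptures the membrane of dying cells, and Casp4 were higher by 0.50 and 0.26 on the log2 scale, and their calls held in 13 and 12 of 20 settings. Casp1, which cleaves Il1b and Il18, stood at 49.9 ± 2.6 against 50.9 ± 11 TPM (SD, n = 3 each), a log2 fold change of 0.00 that did not pass the test as deposited (limma, adjusted p = 0.98) and became 0.56 after size factors (limma, adjusted p = 0.022). Without Vector replicate 3 Casp1 was called lower, at -0.18 (limma, adjusted p = 0.047). Casp8 was lower as deposited, at -0.59, and stood at -0.02 after size factors. Nlrp1b passed the filter only through the Colq tumors and did not pass the test as deposited (0.36; limma, adjusted p = 0.18). After size factors Nlrp1b was called higher (0.65; limma, adjusted p = 0.032).

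Of 12 receptor adaptors and kinases, 9 were called lower and 2 higher, with a median of -0.67 beside -0.50 for all tested genes, of which 59.6% were called lower. After size factors 4 were lower and 3 higher, beside 25.5% and 28.0% of all tested genes. With the length trend removed 3 were lower and 3 higher, with a median of -0.02 beside -0.07 for all tested genes. The 2 higher ones were Irak3 (log2 fold change 0.80; limma, adjusted p = 0.0091), a kinase-dead brake on the pathway, and Irak2 (0.33; limma, adjusted p = 0.029). Both lost their call with first portions only and with merged Colq libraries, and Irak2 also without the filter, with the replicate block (0.050) and without Colq replicate 1, Colq replicate 2, Vector replicate 1 or Vector replicate 2. Tab2 and Irak1, which carry the signal towards NF-kB, were lower, with log2 fold changes of -0.83 each as deposited and -0.27 each after size factors. Myd88, the adaptor of all these receptors, differed by 0.08 as deposited, which did not pass the test (limma, adjusted p = 0.43), and was called higher after size factors, at 0.62 (limma, adjusted p = 0.0011). Of 13 NF-kB and IkB genes, 9 were called lower and the other 4 did not pass, with a median of -0.57, again beside -0.50 and 59.6% for all tested genes. Rela fell by 1.07, Nfkb2 by 0.94 and Nfkb1 by 0.85 on the log2 scale, and all 3 were lower after size factors too (-0.51, -0.40 and -0.29). There 4 of the list were lower and 2 higher, beside 25.5% and 28.0% of all tested genes. With the length trend removed 3 of the list were lower and 1 higher, with a median of 0.02: Rela (-0.75) and Nfkb2 (-0.44) kept their calls, and Nfkb1 stood at 0.023 (limma, adjusted p = 0.86). Chuk was lower as deposited, at -0.63, and stood at -0.08 after size factors.

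Of 15 tested genes known to respond to interleukin 1, 8 were called higher and 3 lower, with a median of 0.55 beside -0.50 for all tested genes. Over all tested genes 11.3% were called higher and 59.6% lower as deposited, and 28.0% and 25.5% after size factors. Of the tested response genes Cxcl5 and Ptges passed the filter only through the Colq tumors, with vector means of 0.892 and 0.73 TPM. Saa3, an acute phase protein, held 564.33, 564.63 and 535.57 TPM in Colq libraries and 7.46 to 87.77 TPM in vector libraries (log2 fold change 4.47; limma, adjusted p = 0.00038). Cxcl1, a neutrophil attractant, rose from 1.20 ± 0.39 to 3.52 ± 0.69 TPM (SD, n = 3 each; log2 fold change 1.12; limma, adjusted p = 0.00090). The adhesion genes Icam1 and Vcam1 were lower, with log2 fold changes of -1.05 and -0.61; Icam1 was lower after size factors too (-0.53), and Vcam1 did not pass there (-0.15) nor with the length trend removed, where its sign changed (0.15). The count of higher genes fell to 4 with first portions only and to 3 with merged Colq libraries, and rose to 11 after size factors.

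**Figure D5:**
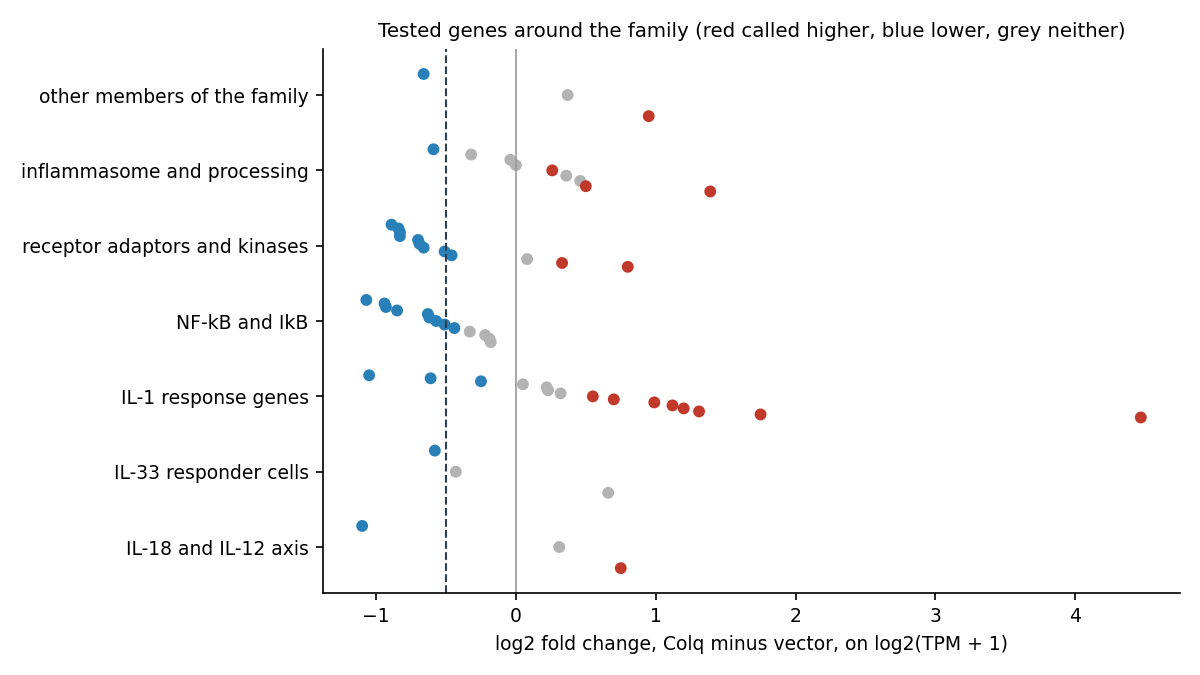
Log2 fold changes, Colq minus vector, on log2(TPM + 1), of the tested genes of the 7 pathway lists, coloured by limma call; the dashed line is the median of all tested genes, -0.50. Adaptor and NF-kB genes lie mostly left of 0, interleukin 1 response genes mostly right of it, with Saa3 at 4.47.

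Few genes of the cells that respond to interleukin 33 or 18 were high enough to test. Of the first list 3 of 12 were tested and Rora was called lower, from 7.11 ± 0.61 to 4.37 ± 0.23 TPM (SD, n = 3 each; log2 fold change -0.58; limma, adjusted p = 0.0018), a call lost after size factors (-0.11) and with merged Colq libraries. With the length trend removed Rora was called higher instead (0.31; limma, adjusted p = 0.037). Gata3 stood at 1.54 ± 1.4 against 0.483 ± 0.18 TPM (SD, n = 3 each) and did not pass as deposited (log2 fold change 0.66; limma, adjusted p = 0.14). With the length trend removed Gata3 was called higher (1.09; limma, adjusted p = 0.037), and it passed the filter only through the Colq tumors. Ikzf2 did not pass as deposited (-0.43; limma, adjusted p = 0.078). Of the interleukin 18 and 12 list 3 of 10 were tested. Stat4 did not pass as deposited (log2 fold change 0.31, limma, adjusted p = 0.28). It was called higher with the length trend removed (0.74, limma, adjusted p = 0.037). Ifng, the cytokine that interleukin 18 induces in T and natural killer cells, held 2.77, 2.70 and 3.05 TPM in Colq libraries and 0.95 to 1.53 TPM in vector libraries (log2 fold change 0.75; limma, adjusted p = 0.0016). Il12rb1, a chain of the interleukin 12 receptor, was lower, at 6.69 ± 0.31 against 17.0 ± 8.2 TPM (SD, n = 3 each; log2 fold change -1.10; limma, adjusted p = 0.0078), and did not pass after size factors (-0.61; limma, adjusted p = 0.090), with second portions only, once the length trend was removed (-0.65) or with merged Colq libraries.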

How the data were processed

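Poly-A RNA of bulk tumors was sequenced from libraries that carry no strand, per the labels' protocols, so reads of overlapping genes on opposite strands cannot be separated. The authors deposited log2(TPM + 1) values, turned back to TPM here. The submitters' processing notes name RSEM, DESeq2 and build mm39; aligner, versions and annotation release were not given in the sources used here. The authors' deposited comparison gives, per its file headers, a mean signal per gene after normalization, a log2 fold change with its error, a Wald score and p-values. Colq's sign in it gave the direction; which libraries it used is not stated. A deposited table of antigen receptor measures was not used.

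Groups and numbers came from the titles. Portions were averaged on the log2 scale for the fit and as TPM for means, SD, ratios and size factors. The fit used limma 3.58.1 (R 4.3.3; lmFit and eBayes, trend on) on log2(TPM + 1) for genes whose mean over 6 tumors reached 1 TPM, with Benjamini-Hochberg adjustment over all of them at 0.05; the pseudocount of 1 understates the change of low genes. It was checked on simulated data. Ratios and marker sums were computed in Python 3.11.15 (numpy 2.4.6, pandas 2.3.3, scipy 1.17.1), figures in matplotlib 3.10.9. Same-numbered Colq and vector tumors correlated by 0.0299, 0.00701 and 0.0443 in their deviations from the group means. Tumors of different numbers correlated by -0.0539 to 0.0207. With 3 tumors per group this cannot settle whether the numbers pair tumors, and the main fit did not pair them.

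Alternatives were pseudocounts of 0.1 and 0.5, no filter, a floor of 5 TPM on the mean, median-of-ratios size factors, quantile normalization, other treatments of the portions, robust moderation, a replicate block, a loess (span 0.5) removal of the trend on exonic length, taken from a GRCm38 annotation for 96.3% of tested genes, and leaving out each tumor. The merged Colq libraries were added after the data were seen. Genes named by rule are Colq, the 10 members and up to 4 called genes of each pathway list by smallest p in each direction. From marker lists the rule was the first 3 detected genes. Not all 3 were named for every list, so those shown are a selection. The others named were chosen after their values were seen. These are Casp1, Myd88, Il18rap, Il18r1, the neighbours on chromosome 1, Dcn, Camp, Ngp, Lyz2, Ikbkb, Sod2, Ikzf2, Itgax and Stat4. They also include list genes that passed the filter only through the Colq tumors and the low genes of the closing section. The members and lists were chosen with earlier results of these data known. Depth is lost in TPM, and precision is judged by 3 tumors per group.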

Additional observations from a re-analysis of the deposited data

How the results depend on the processing

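Each tested member kept its direction in every setting it could be fitted in. Il33, Il1b, Il1rn and Il1rap kept their calls in all 20. Il1rl1 kept its call in 19 of 19 and Il1r2 in 18 of 19. Il18 kept it in 18 of 20, Il1r1 in 14 of 19 and Il18bp in 12 of 20. Except in the fit without a filter, the calls on Il1rl1 rest on a filter passed only through the Colq tumors. Members called higher numbered 8; they were 5 with a mean TPM of at least 5 (6 members tested), 4 with merged Colq libraries, and 6 to 8 when a tumor was left out, with 1 lower throughout. Of all tested genes, 1556 were higher and 8181 lower; the counts were 3842 and 3505 after size factors, 3150 and 4243 after quantile normalization and 2609 and 3606 with the length trend removed, and 788 were higher with merged Colq libraries. Leaving out a tumor gave 1310 to 1549 higher and 7484 to 8216 lower. Of the 7 pathway lists, with 3, 9, 12, 13, 15, 3 and 3 genes tested, 15 genes were higher and 25 lower. Of all tested genes 11.3% were higher and 59.6% lower. The higher list genes were 8 with a mean TPM of at least 5, where fewer were tested (6 response genes in place of 15). They were 26 after size factors, 7 with first portions, 25 with the length trend removed and fewer than 15 with merged Colq libraries. The lower ones were 9 after size factors, 9 after quantile normalization and 8 with the length trend removed. After size factors 28.0% of all tested genes were higher and 25.5% lower. Leaving out a tumor gave 11 to 14 higher and 24 to 27 lower list genes. The replicate block gave 1526 higher and 7928 lower genes, 8 and 1 members, and 13 and 26 list genes. The cause of these shifts was not tested. The stricter filter leaves fewer genes and the merged Colq libraries leave fewer samples. With the length trend removed 3 of the list genes named by rule changed sign against their log2 fold change as deposited. These were Nfkb1 at 0.023, Vcam1 at 0.15 and Rora at 0.31. Further list genes also changed sign. Among them Ikbkb went from -0.51 (limma, adjusted p = 0.0051) to 0.49 (limma, adjusted p = 0.0097). Sod2 went from -0.25 (limma, adjusted p = 0.012) to 0.56 (limma, adjusted p = 0.00054). Casp1, at 0.00 as deposited, ranged from -0.18 (called, without Vector replicate 3) to 0.10 (without Vector replicate 1) when a tumor was left out. No difference of Il1a was found, with an interval of -0.27 to 0.38 without the filter, and the fold changes of Il1r2 and Il1rl1 vary with the pseudocount.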

Other observations

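Several genes of the lists around the family lay under the filter, and their values, picked out after they were seen, come from the fit without a filter. Ccr3, an eosinophil receptor for eotaxins, held 1.00, 1.15 and 1.12 TPM in Colq libraries and 0 to 0.08 TPM in vector libraries (log2 fold change 1.02; limma, adjusted p = 0.00019). Foxp3, which defines regulatory T cells, another carrier of Il1rl1, was lower, at 0.303 ± 0.031 against 1.04 ± 0.30 TPM (SD, n = 3 each; log2 fold change -0.64; limma, adjusted p = 0.010). Il12b, a subunit of interleukin 12, which acts with interleukin 18 on natural killer cells, stood at 1.36 ± 0.18 against 0.287 ± 0.12 TPM (SD, n = 3 each; log2 fold change 0.88; limma, adjusted p = 0.0020). Klrb1c, a natural killer cell receptor, stood at 1.27 ± 0.43 against 0.347 ± 0.20 TPM (SD, n = 3 each; log2 fold change 0.75; limma, adjusted p = 0.023). Of the interleukin 18 and 12 list, Ncr1 was also called higher (0.47, limma, adjusted p = 0.034). Tbx21 (-0.04), Eomes (0.04), Il12a (0.07) and Il12rb2 (-0.23) did not pass (limma, adjusted p = 0.77, 0.80, 0.26 and 0.097). Il5 and Il13, type 2 cytokines that interleukin 33 induces, were at 0.10 TPM or less in all libraries. Of the same list, Klrg1 stood at 0.937 ± 0.32 against 0.31 ± 0.1 TPM (SD, n = 3 each; log2 fold change 0.56; limma, adjusted p = 0.025). Il4 stood at 0.957 ± 0.46 against 0.25 ± 0.22 TPM (SD, n = 3 each) and did not pass (0.65; limma, adjusted p = 0.069). Areg, Il9r and Ccr8 did not pass either.

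The interleukin 36 ligands were near 0 in most libraries. Il36a, Il36b, Il36g and their antagonist Il36rn were highest in the first portion of vector tumor 1, at 0.27, 0.85, 0.94 and 1.94 TPM, the library that also held the most keratinocyte RNA. The Colq libraries held 1.41, 0.78 and 0.34 TPM of Il36rn and 0 TPM of Il36a. All 4 lay under the filter.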
